A study of Homo sapiens with 6 samples.

Results

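The estrogen receptor and luminal transcription factor network was followed here through 8 genes, ESR1, ESR2, PGR, GATA3, FOXA1, XBP1, SPDEF and ELF3, in the breast cancer line SUM44 and in LCCTam, the tamoxifen-resistant line made from it. Members were all probe sets whose single gene symbol in the platform annotation was one of these genes. This gave 27 probe sets among 22215 that were not controls, or 8 of 11963 named genes. ESR1 had 9 of them, ESR2 5, SPDEF 5, GATA3 3, ELF3 2, and PGR, FOXA1 and XBP1 1 each. ESR1 was the member that changed: 5 of its probe sets were lower in LCCTam, by 0.85 to 1.65 on the log2 scale, where 5.16% of all probe sets were lower and 6.73% passed in either direction (adjusted p under 0.05). In limma 0 of the other 18 probe sets passed after adjustment, and 3 of them, all of SPDEF, had an unadjusted p under 0.05. Their differences lay between -0.23 and 0.32.

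Estrogen receptor alpha, the product of ESR1, is a nuclear receptor that binds estrogen, enters chromatin and switches on genes of growth and secretion in luminal breast cells. Tamoxifen acts through its active form, 4-hydroxytamoxifen, which occupies the ligand pocket of the receptor and keeps it from recruiting coactivators. FOXA1 is a pioneer factor that opens the chromatin sites to which the receptor goes, and GATA3 is the zinc finger factor of luminal identity that occupies many of the same sites. XBP1 and PGR are known estrogen targets, while SPDEF and ELF3 are epithelial factors of the ETS family.

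SUM44 comes from a lobular breast cancer and is labelled positive for both the estrogen and the progesterone receptor. It was sampled at passages 74, 75 and 76, which are replicates 1, 2 and 3, and LCCTam at passages 8, 9 and 10. Both were grown in the SFIH form of Ham's F12 medium. LCCTam was kept in 500 nM 4-hydroxytamoxifen and no drug is named for SUM44, so what the drug does while present and what differs lastingly between the lines cannot be told apart. LCCTam is a single variant line, and the labels do not say whether its passages were separate cultures. The p-values therefore speak to the spread between these samples, which may be partly technical.

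Each sample was read on 1 array. LCCTam replicate 3 stood apart. Its 75th percentile of log2 expression was 7.50, against 7.67 to 7.77 on the other 5 arrays, and its actin control probe sets differed by 1.92 between the 3' and the 5' end, against 0.90 to 1.15. In the fit over all probe sets 1494, or 6.73%, passed an adjusted p of 0.05, 5.16% lower and 1.56% higher in LCCTam. That count was 357 without SUM44 replicate 2, 949 without SUM44 replicate 3, 471 without LCCTam replicate 1, 673 without LCCTam replicate 2 and 2398 without LCCTam replicate 3. The excess of lower probe sets also depended on the setting. With every array as deposited 347 were higher and 1147 lower, against 727 and 967 after quantile normalization. Without LCCTam replicate 3 they were 942 and 1456. The 7 luminal markers fixed for the check lay at percentiles 75.3 to 99.6 of all probe sets, with KRT18 at the top and the E-cadherin gene CDH1 at the bottom. The 6 measured basal or myoepithelial markers and the fibroblast and leukocyte or endothelial markers lay at percentiles 1.36 to 64.1. In limma 0 of the 25 markers of the 4 lists passed, and 2 had an unadjusted p under 0.05. These were named after their values were seen, the mucin gene MUC1 at a log2 difference of -1.38 (adjusted p = 0.0547) and the epithelial adhesion gene EPCAM at -0.30 (adjusted p = 0.176).

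The stretches of genome before the annotated starts of the members are shown first, because these genes are known to regulate one another and because ESR1 and GATA3 have several starts. RefSeq on GRCh38.p14 gave 25 starts for the 8 genes, 6 each for ESR1 and GATA3, 5 for ESR2, 3 for PGR, 2 for XBP1 and 1 each for FOXA1, SPDEF and ELF3. The 250 bases before each start were searched on both strands. The window shown for ESR1 is the one of its 6 that holds an estrogen response element half-site, and it lies inside the gene, downstream of the first start. For GATA3, XBP1 and ESR2 the window of the farthest upstream start is shown. Capitals mark the half-site GGTCA or its complement, or the ETS motif CCGGAA. The windows are ESR1 at chr6:151690277-151690526 on the plus strand, GATA3 at chr10:8045083-8045332 on the plus strand, XBP1 at chr22:28800570-28800819 on the minus strand and ESR2 at chr14:64338614-64338863 on the minus strand.
ESR1: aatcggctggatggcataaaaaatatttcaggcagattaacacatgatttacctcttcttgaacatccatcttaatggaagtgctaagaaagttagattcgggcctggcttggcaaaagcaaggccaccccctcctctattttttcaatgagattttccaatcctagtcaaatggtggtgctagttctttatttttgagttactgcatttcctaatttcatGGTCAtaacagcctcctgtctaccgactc
GATA3: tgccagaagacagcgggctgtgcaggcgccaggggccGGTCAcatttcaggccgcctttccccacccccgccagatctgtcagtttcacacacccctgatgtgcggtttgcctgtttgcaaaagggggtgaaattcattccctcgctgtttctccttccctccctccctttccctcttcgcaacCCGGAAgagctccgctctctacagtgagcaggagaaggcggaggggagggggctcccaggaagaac
XBP1: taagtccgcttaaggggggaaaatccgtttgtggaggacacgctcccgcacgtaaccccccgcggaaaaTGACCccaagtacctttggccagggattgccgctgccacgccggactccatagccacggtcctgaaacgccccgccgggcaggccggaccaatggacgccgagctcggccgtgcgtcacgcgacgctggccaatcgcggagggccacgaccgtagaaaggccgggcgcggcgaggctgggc
ESR2: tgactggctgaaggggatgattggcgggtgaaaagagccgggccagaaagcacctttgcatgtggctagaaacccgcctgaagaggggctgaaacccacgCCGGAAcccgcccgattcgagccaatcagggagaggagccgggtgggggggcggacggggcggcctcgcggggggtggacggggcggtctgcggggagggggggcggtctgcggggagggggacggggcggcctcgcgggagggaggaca

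The half-site was in 10 of the 25 member windows, of ESR1, ESR2, PGR, GATA3 and XBP1, and in 32.6% of all 35116 windows of this length. The full palindrome GGTCANNNTGACC, an inverted pair of that half-site, was in 0 of the 25 and in 14 of all windows. The ETS motif CCGGAA was in 5 member windows, of ESR1, ESR2 and GATA3, against 14.5% of all. The GATA motif AGATAA, the forkhead motif TGTTTAC and the unfolded protein response element core TGACGTGG were each in 0 of the 25, against 9.17%, 2.98% and 0.612% of all windows. Several windows of ESR2 and of PGR overlap, so their matches are partly the same bases. A match is only a stretch of letters here, since binding was not measured, and the probe sets do not tell which ESR1 start was in use.

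ESR1, the receptor gene itself, was lower in LCCTam. Its brightest probe set, 205225_at, had a log2 expression of 12.49, 12.79 and 12.93 in SUM44 and of 11.14, 10.94 and 11.17 in LCCTam. The lowest SUM44 array stood well above the highest LCCTam array, and the 3 LCCTam arrays lay closer together than the 3 SUM44 arrays. The means were 12.74 ± 0.23 and 11.08 ± 0.13 (SD, n = 3 each). The log2 difference was -1.65 (SE 0.13, limma adjusted p = 0.00172), which is 3.15-fold lower, with a 95% interval of -1.97 to -1.34. Even so ESR1 remained a bright signal in LCCTam, and the mean of this probe set over the 6 arrays was at percentile 98.6 of all probe sets. RNA of whole cultures was measured, so fewer cells with ESR1 transcripts and fewer transcripts per cell cannot be told apart. On the list of 11963 genes ordered from the most negative difference it was number 68.

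**Figure D1:**
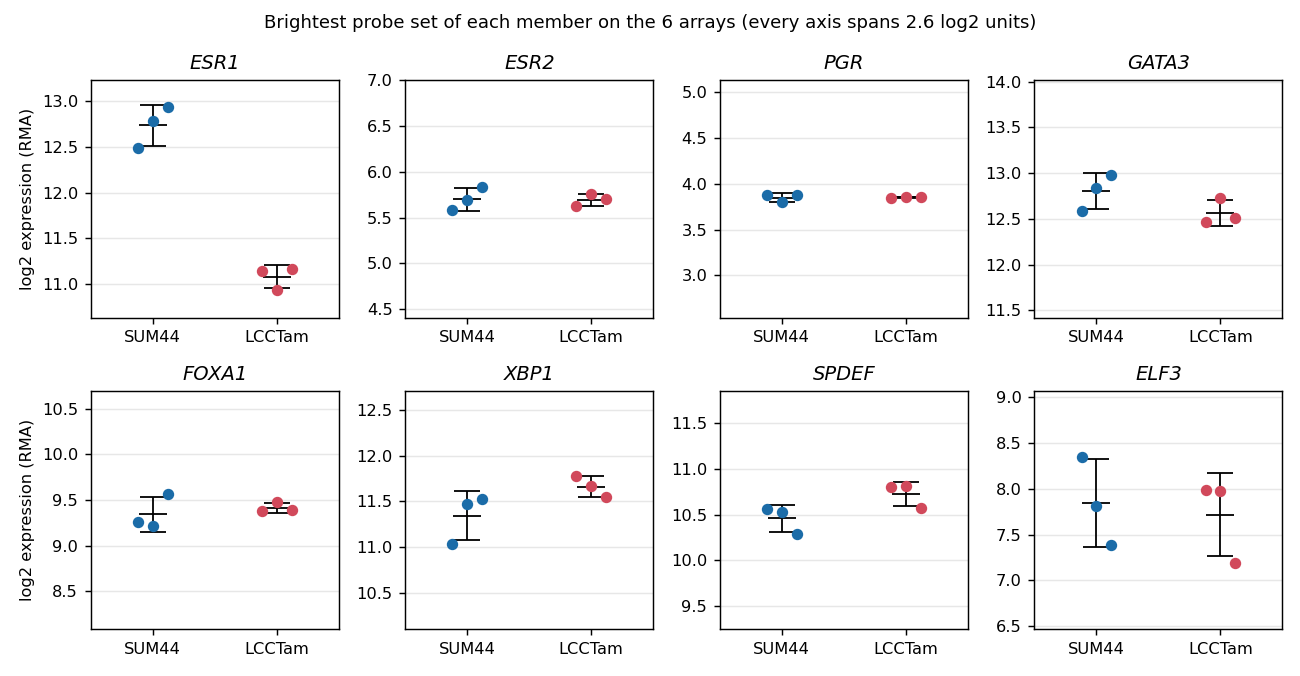
Log2 expression of the brightest probe set of each of the 8 members on the 3 SUM44 (blue) and 3 LCCTam (red) arrays, with the mean and SD in black; every vertical axis spans the same number of log2 units. ESR1 is the panel in which the lines lie far apart, at means of 12.74 and 11.08, while ELF3 has the widest scatter within each line.

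The other ESR1 probe sets gave the same direction at sizes that differed. Probe set 211235_s_at read 7.67, 7.92 and 7.61 in SUM44 and 6.10, 6.25 and 6.12 in LCCTam. Its log2 difference was -1.58 (SE 0.11, adjusted p = 0.000943). Probe set 215552_s_at read 7.25, 7.65 and 7.21 against 6.05, 6.09 and 6.01. It differed by -1.32 (adjusted p = 0.00311). Both thus showed a gap between the lines that was several times the spread within either. Probe set 211234_x_at read 7.88, 8.29 and 7.93 against 6.95, 7.03 and 6.79, a log2 difference of -1.11 (adjusted p = 0.00565). Probe set 211233_x_at read 7.55, 8.20 and 7.94 against 7.10, 6.95 and 7.07 and had the smallest passing difference, -0.85 (adjusted p = 0.0275). Its call was lost with quantile normalization (adjusted p = 0.0507) and without SUM44 replicate 2 (0.0894), SUM44 replicate 3 (0.0798), LCCTam replicate 1 (0.0955) or LCCTam replicate 2 (0.0902).

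The remaining 4 ESR1 probe sets were dim and did not pass. Probe set 217190_x_at had means of 5.76 and 5.43, 215551_at of 4.84 and 4.53 and 217163_at of 4.52 and 4.34. All 3 lay lower on every LCCTam array than on any SUM44 array, with log2 differences of -0.33, -0.30 and -0.17 and adjusted p-values of 0.148, 0.170 and 0.293. Probe set 211627_x_at, at percentile 0.212 of all probe sets, had means of 3.51 and 3.47 and overlapped. In all, 8 of the 9 ESR1 probe sets did not overlap between the lines and were lower in LCCTam, beside 15.7% of all probe sets that did so and 28.7% that did not overlap in either direction. The values came with no detection calls, so a dim probe set cannot be told from background here. The 9 probe sets share their gene and arrays and are not replicates.

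**Figure D2:**
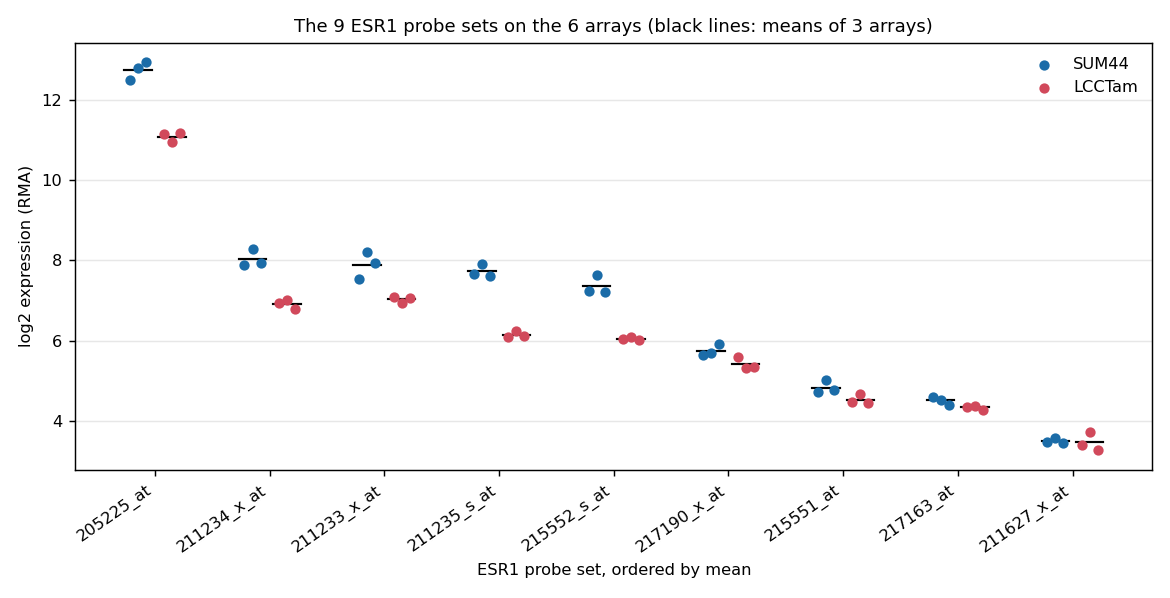
Log2 expression of the 9 ESR1 probe sets, ordered by mean, on the 3 SUM44 (blue) and 3 LCCTam (red) arrays; black lines are means of 3 arrays. The gap between the lines is wide in the 5 brighter probe sets, from 0.85 to 1.65, and narrows to 0.04 in the dimmest.

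ESR2, which encodes estrogen receptor beta, was not among the genes that passed. Its brightest probe set, 210780_at, read 5.58, 5.69 and 5.83 in SUM44 and 5.63, 5.76 and 5.70 in LCCTam. The lines overlapped, and the log2 difference was -0.01 (95% interval -0.23 to 0.21, adjusted p = 0.976). The other 4 probe sets differed by 0.08 to 0.20 with adjusted p-values of 0.479 to 0.649. They lay at percentiles 2.95 to 29.4 of all probe sets. One of them, 211119_at, was higher on every LCCTam array than on any SUM44 array, as were 13% of all probe sets. Its means were 3.68 and 3.77, close to the bottom of the range. These levels do not tell whether estrogen receptor beta was expressed in either line.

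PGR, the progesterone receptor gene, was dim in both lines, although the labels call SUM44 positive for the progesterone receptor. Its probe set, 208305_at, read 3.88, 3.80 and 3.88 in SUM44 and 3.85, 3.86 and 3.86 in LCCTam. The log2 difference was 0.00 (95% interval -0.17 to 0.17, adjusted p = 0.991), at percentile 5.33 of all probe sets. A probe set this dim can hide a change in a low transcript level.

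GATA3, the luminal zinc finger factor, stayed at the top of the range in both lines. Its brightest probe set, 209604_s_at, read 12.59, 12.84 and 12.98 in SUM44 and 12.46, 12.73 and 12.51 in LCCTam. One LCCTam array lay above the lowest SUM44 array, so the lines overlapped. The means were 12.80 ± 0.20 and 12.57 ± 0.14 (SD, n = 3 each) and the log2 difference was -0.23 (95% interval -0.53 to 0.07, adjusted p = 0.342). Probe sets 209602_s_at and 209603_at differed by -0.23 (adjusted p = 0.321) and -0.08 (adjusted p = 0.756). All 3 were slightly lower in LCCTam on average, and the interval of the brightest allows a level down to 0.69 of that in SUM44. With array weights, which called 6828 of all 22215 probe sets, the brightest probe set passed, at -0.33 (adjusted p = 0.0267).

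FOXA1, the pioneer factor, was read by 204667_at at 9.25, 9.22 and 9.57 in SUM44 and at 9.38, 9.47 and 9.39 in LCCTam. The LCCTam arrays lay within the SUM44 range. The log2 difference was 0.07 (95% interval -0.20 to 0.33, adjusted p = 0.767). The interval spans 0.87 to 1.26 times the SUM44 level and speaks only to the spread between these samples.

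XBP1, a transcription factor of secretory cells and of the unfolded protein response, was slightly higher in LCCTam without passing. Its probe set, 200670_at, read 11.04, 11.47 and 11.52 in SUM44 and 11.77, 11.66 and 11.54 in LCCTam. Every LCCTam array lay above every SUM44 array, as for 13% of all probe sets. The nearest pair was SUM44 replicate 3 at 11.52 and LCCTam replicate 3 at 11.54. The log2 difference was 0.32 (95% interval -0.03 to 0.66, adjusted p = 0.267). It passed with array weights, at 0.35 (adjusted p = 0.0310), as did 6828 of all 22215 probe sets. XBP1 activity depends on splicing of its messenger RNA, which 1 probe set does not show.

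SPDEF, an ETS factor of secretory epithelium, had the most probe sets leaning upward. Its brightest, 220192_x_at, read 10.56, 10.53 and 10.29 in SUM44 and 10.80, 10.81 and 10.57 in LCCTam. Its log2 difference was 0.27 (95% interval 0.00 to 0.53, adjusted p = 0.223). Probe set 214404_x_at read 10.45, 10.35 and 10.41 against 10.86, 10.73 and 10.57, a difference of 0.32 (adjusted p = 0.111). Probe set 213441_x_at read 10.28, 10.27 and 10.14 against 10.65, 10.49 and 10.45, a difference of 0.30 (adjusted p = 0.107). In these 3 bright probe sets no LCCTam array fell to the SUM44 range, beside 13% of all probe sets with that pattern. The dimmer 214403_x_at and 213442_x_at differed by 0.02 and 0.18 and overlapped. All 5 SPDEF probe sets carry the suffix _x_at, which marks probes shared with other sequences. After quantile normalization 214404_x_at and 213441_x_at passed, at 0.38 (adjusted p = 0.0342) and 0.37 (adjusted p = 0.0471), and without LCCTam replicate 3 the former passed, at 0.39 (adjusted p = 0.0333). With array weights the brightest, 214404_x_at and 213441_x_at passed, at 0.31, 0.46 and 0.38, as did 6828 of all 22215 probe sets.

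ELF3, the other ETS member, varied more from array to array than between the lines. Probe set 210827_s_at read 8.35, 7.81 and 7.39 in SUM44 and 7.99, 7.97 and 7.19 in LCCTam, and 201510_at read 8.12, 7.27 and 7.53 against 7.75, 7.65 and 6.96. The log2 differences were -0.13 (95% interval -0.83 to 0.57) and -0.19 (95% interval -0.84 to 0.47), with adjusted p-values of 0.840 and 0.743. The SD of the brighter within a line was 0.47, at percentile 98.3 of all probe sets, whose median was 0.14. In both probe sets SUM44 replicate 1 was the highest and LCCTam replicate 3 the lowest. These intervals are the widest among the members, so a moderate change of ELF3 in either direction was not detectable.

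**Figure D3:**
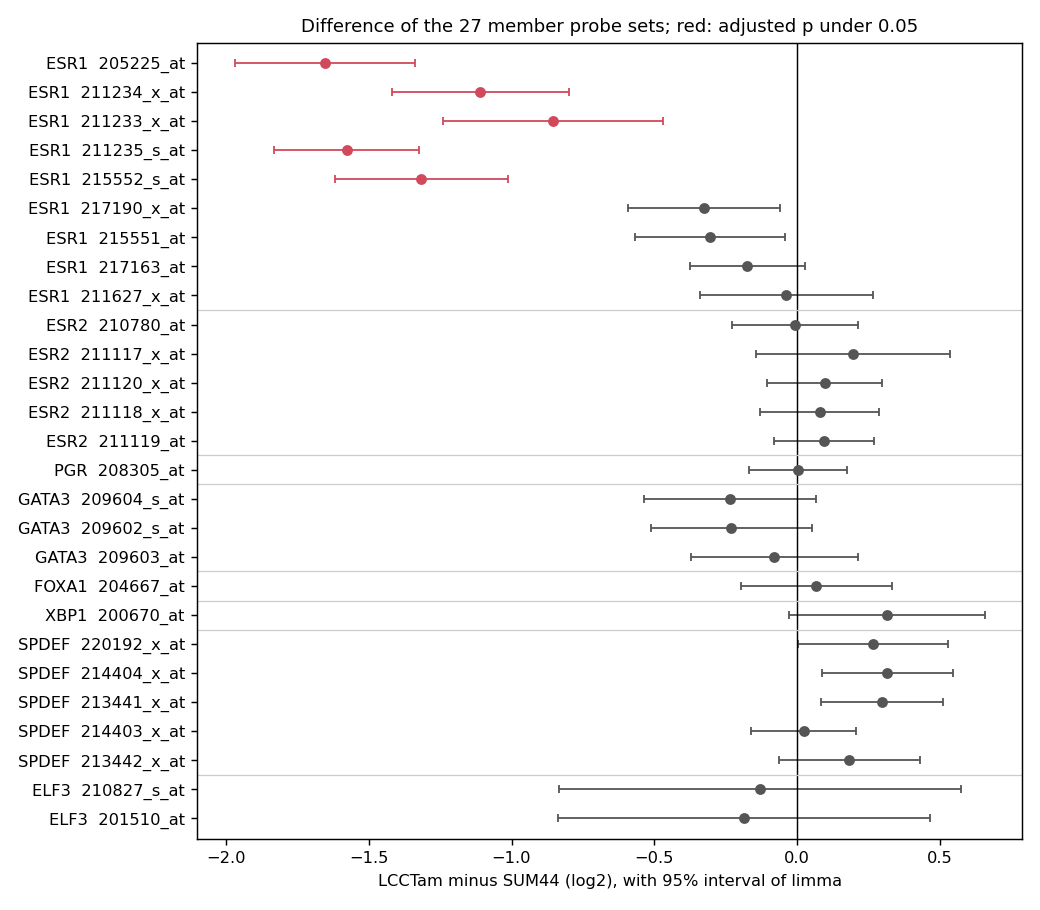
Log2 difference, LCCTam minus SUM44, of the 27 member probe sets with the 95% interval of limma; red points have an adjusted p under 0.05. The 5 red points are all ESR1, between -1.65 and -0.85, and the 3 bright SPDEF probe sets and XBP1 lie between 0.27 and 0.32.

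The change of ESR1 relative to the other members was read within arrays, as the log2 ratio of its brightest probe set to theirs. The ratio differed between the lines by -1.42 for GATA3, -1.52 for ELF3, -1.72 for FOXA1, -1.92 for SPDEF and -1.97 for XBP1. The ratios to the dim PGR and ESR2 probe sets differed by -1.66 and -1.65, beside -1.65 for ESR1 itself. The lines did not overlap in any of the 7 ratios, which the step of ESR1 alone largely fixed. The ratio to ELF3 had the narrowest gap, with a highest LCCTam value of 3.98 and a lowest SUM44 value of 4.14. The exact two-sided permutation p was 0.1 for each, and 0.1 after Benjamini-Hochberg adjustment over the 7, which is the smallest that 3 against 3 allows, so this test could not pass at 0.05. ESR1 is part of every ratio, so the 7 are not independent.

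Among the relatives of the members 1 gene, GATA4, passed. The 5 lists from here on were chosen with earlier results of these data known. Their shares of passing genes may therefore partly follow from that choice. Among 10 measured GATA, FOXA and epithelial ETS genes, 1 rose, 0 fell and 9 missed the threshold, with a median log2 difference of 0.04, beside 7.56% of all genes that passed and a median of 0.02. The gene that rose was GATA4, a zinc finger factor of heart and gut endoderm. It read 4.83, 4.93 and 5.10 in SUM44 and rose to a mean of 7.09 ± 0.22 in LCCTam (SD, n = 3), a log2 difference of 2.14 (SE 0.13, adjusted p = 0.000669) or 4.40-fold. FOXA2, a FOXA1 paralog, differed by 0.05, and ELF5 and EHF, ETS relatives of ELF3, were dim and differed by 0.03 and -0.47 (adjusted p = 0.883 and 0.0626). Of the 9 that missed the threshold, 4 were lower on every LCCTam array than on any SUM44 array. Besides EHF these were GATA6 at -0.52, ELF2 at -0.52 and ELF1 at -0.20, named after their values were seen (adjusted p = 0.149, 0.119 and 0.203). Values of the lines did not overlap, with LCCTam lower, for 15.7% of all probe sets. With array weights 2 of the 10 genes rose and 4 fell, beside 3310 of all 22215 probe sets that rose and 3518 that fell.

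Other luminal transcription factors went both ways. The 16 measured genes held 3 that rose, 3 that fell and 10 that did not pass, with a median log2 difference of -0.19, beside 1.98% of all genes that rose and 5.58% that fell. KLF4, a Kruppel-like factor of epithelial differentiation, differed by -1.58 (adjusted p = 0.0125), and ZNF217, a zinc finger factor amplified in some breast cancers, by -1.24 (adjusted p = 0.0205). CITED1, a coactivator of the estrogen receptor, rose by 1.09 (adjusted p = 0.00742), and LMO4, a LIM-only adaptor, by 0.91 (adjusted p = 0.0240). The other 2 that passed, named after their values were seen, were TRPS1 at -0.82 and TFAP2A at 0.43. The count fell when certain single arrays were left out. So did that over all probe sets, from 1494 to 357 without SUM44 replicate 2 and 471 without LCCTam replicate 1. For this list the count was 0 without SUM44 replicate 2, 1 without LCCTam replicate 1, and 3 without SUM44 replicate 3 or LCCTam replicate 2. LMO4 and ZNF217 were lost in each of these 4 settings (adjusted p = 0.0585 to 0.108 for LMO4 and 0.0593 to 0.0992 for ZNF217). KLF4 was lost without SUM44 replicate 2 (0.0526) or LCCTam replicate 1 (0.0552), and CITED1 without SUM44 replicate 2 (0.0522). The other LMO4 probe set differed by 0.41 (adjusted p = 0.278).

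Of the genes known to be expressed together with ESR1 in breast tumours, those that passed were lower in LCCTam. Among 26 measured, 8 fell, 0 rose and 18 missed the threshold, beside 5.58% of all genes that fell. The median log2 difference was -0.29. As the list was chosen with earlier results known, its share may partly follow from the choice. INPP4B, a lipid phosphatase that restrains AKT signalling, went from a log2 expression of 9.86 ± 0.27 in SUM44 to 7.45 ± 0.17 in LCCTam (SD, n = 3 each). It differed by -2.40 (adjusted p = 0.00073). IL6ST, the shared signalling subunit of the interleukin-6 receptor family, fell by 2.09 (adjusted p = 0.000669), and 4 of its 5 probe sets passed. SLC44A4, a choline-family transporter, fell by 1.85, and TBC1D9, which carries a Rab GTPase-activating domain, by 1.76 in the brighter and 1.36 in the other probe set. The others that passed, named after their values were seen, were NAT1 at -1.27, SLC39A6 at -0.98, ABAT at -0.80 and GFRA1 at -0.39. The GFRA1 probe set was dim, at percentile 10.5 of all probe sets, with means of 4.29 and 3.90. In this list 5 fell without SUM44 replicate 2 and 5 without LCCTam replicate 1, where 357 and 471 of all probe sets passed instead of 1494. Without LCCTam replicate 3, the array that stood apart, 2 rose and 10 fell, while 2398 of all probe sets passed. Quantile normalization gave 1 that rose and 8 that fell. With array weights 4 rose and 14 fell, beside 3310 of all 22215 probe sets that rose and 3518 that fell.

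Estrogen-induced genes that changed moved in both directions. Among 35 measured, 8 rose, 5 fell and 22 missed the threshold, beside 1.98% of all genes that rose and 5.58% that fell. The median log2 difference was -0.09. Here too the list was chosen with earlier results known, so these shares may partly follow from the choice. The interleukin receptor gene IL17RB differed by -1.99 on the log2 scale, while SERPINA1, the alpha-1 antitrypsin gene, RET, a receptor tyrosine kinase, and KRT13, a keratin, rose by 3.55, 2.25 and 1.97. The third SERPINA1 probe set, 211428_at, was dim and differed by 0.12. Among classical targets named after their values were seen, TFF1, a secreted trefoil factor, differed by -1.46 (adjusted p = 0.0296) and TFF3 by 0.11. GREB1 differed by 0.06, but its probe set was dim, at percentile 31.0 of all probe sets. The other passing genes were also named after their values were seen. They were CTSD at 1.90, CELSR2 at 1.43, NHERF1 at 1.27, ABCA3 at 1.11 and RAPGEFL1 at 1.01, and IGF1R at -1.32, NRIP1 at -0.82 and CCND1 at -0.76. The count that fell was 2 without SUM44 replicate 2 or LCCTam replicate 1, 3 without LCCTam replicate 2 and 11 with array weights. In these settings 7 or 8 rose. Over all probe sets 1494 passed with every array, 357 without SUM44 replicate 2, 471 without LCCTam replicate 1 and 673 without LCCTam replicate 2. Array weights called 6828 of all 22215 probe sets. Of the 35 genes, 11 were lower on every LCCTam array than on any SUM44 array, beside 15.7% of all probe sets. The reverse held for 9, beside 13%. Among these, some missed the threshold and were named after their values were seen. They included STC2 at -0.93 (adjusted p = 0.0772), SIAH2 at -0.89 (0.0857), MYB at -0.86 (0.0664) and OLFM1 at 0.43 (0.239).

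Most targets and regulators of XBP1 missed the threshold, and the share that passed was near that of all genes. Among 26 measured, 1 rose, 2 fell and 23 missed the threshold, so that 11.5% passed beside 7.56% of all genes, with a median log2 difference of 0.13. SEC61A1, the channel through which proteins enter the endoplasmic reticulum, rose by 1.01 (adjusted p = 0.00435). WFS1, an endoplasmic reticulum membrane protein, fell by 0.95 (adjusted p = 0.0438), and SEL1L, an adaptor of protein degradation there, by 0.65 (adjusted p = 0.0256). Without any 1 of SUM44 replicates 2 and 3 and LCCTam replicates 1 and 2 only SEC61A1 passed. Without LCCTam replicate 3 the list had 3 higher and 2 lower. Over all probe sets the count also fell without any 1 of the former arrays, and it rose from 1494 to 2398 without LCCTam replicate 3. Without SUM44 replicate 1 WFS1 also missed the threshold, at an adjusted p of 0.0954. HSPA5, the chaperone BiP, and DNAJB9, a classical XBP1 target, differed by 0.12 and 0.20 without passing. Larger differences that also missed the threshold, named after their values were seen, were those of HERPUD1 at 0.86 (adjusted p = 0.0668), SDF2L1 at 0.77 (0.125) and CRELD2 at 0.39 (0.154). In all, 6 genes of the list were higher on every LCCTam array than on any SUM44 array, beside 13% of all probe sets. With array weights 7 rose and 2 fell, beside 3310 of all 22215 probe sets that rose and 3518 that fell.

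**Figure D4:**
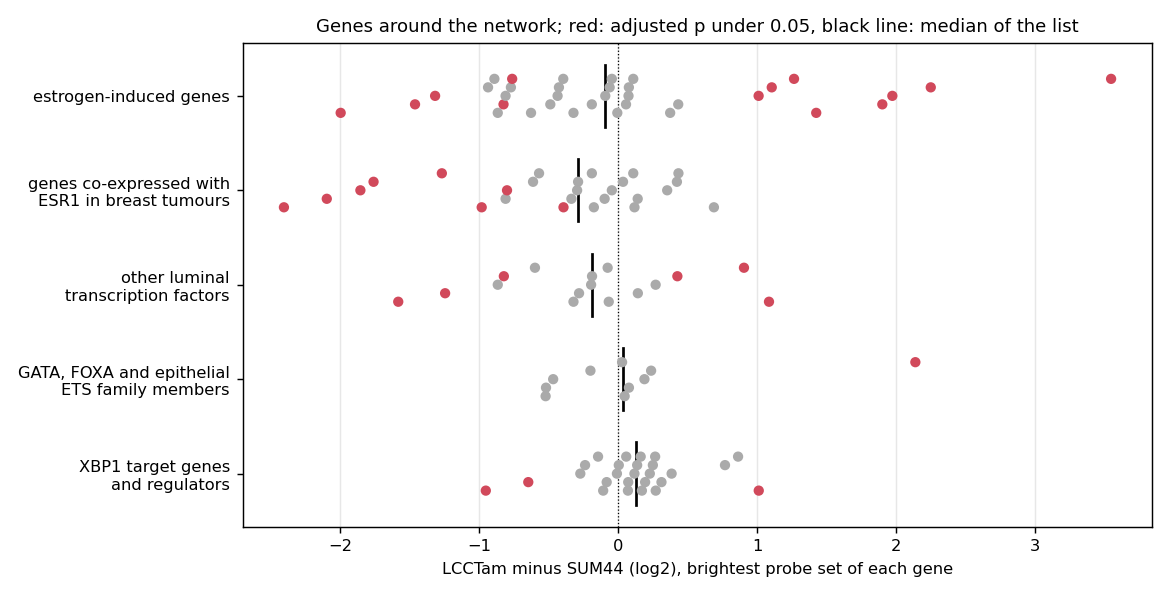
Log2 difference, LCCTam minus SUM44, of every measured gene in 5 lists around the network, by the brightest probe set; red points have an adjusted p under 0.05 and the black line is the median of the list. The genes co-expressed with ESR1 have 8 red points, all below zero, while the estrogen-induced genes have 8 above and 5 below.

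The genes whose pattern over the 6 arrays was closest to ESR1 were sought by the smallest root mean square difference of log2 values after centring each gene on its own mean. They were LAP3, a leucine aminopeptidase (root mean square difference 0.103), SLC30A9, a zinc transporter family gene (0.152), SCCPDH (0.155), CLGN, a chaperone of the calnexin family (0.160), and PDS5A, a cohesin regulator (0.167). LAP3 read 9.06, 9.49 and 9.50 in SUM44 and 7.91, 7.66 and 7.65 in LCCTam, a log2 difference of -1.61. The others differed by -1.44 to -1.90. All 5 passed, which their choice by likeness to ESR1 largely fixed. RefSeq places 4 of these 5, all but SCCPDH, on chromosome 4, as it does INPP4B, TBC1D9 and WFS1, whereas ESR1 is on chromosome 6. This comparison was chosen after these values were seen. Of 453 genes measured on chromosome 4, those named here included, 18.3% were lower in LCCTam, against 5.07% of the genes elsewhere. These were 83 of the 667 genes that were lower. The likeness is over 6 arrays of 2 lines and rests largely on the step between the lines.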

How the data were processed

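Total RNA of 3 SUM44 and 3 LCCTam samples was read on Affymetrix arrays of 22283 probe sets. The deposited values are log2 expression made by the authors with RMA (background correction, array distributions made alike, probes summarised; version and chip definition not given in the sources used here), per the submitters' processing notes and the series' design text. In these values the 75th percentile still differed between arrays, from 7.50 in LCCTam replicate 3 to 7.77 in SUM44 replicate 1. Samples were grouped by title.

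The 68 control probe sets were left out, with no filter on intensity. Names come from the platform annotation where it gave 1 symbol (19065 probe sets), updated through RefSeq for 19053, and the probe set with the highest mean stood for each of 11963 genes. LCCTam minus SUM44 was estimated by lmFit and eBayes of limma 3.58.1 (R 4.3.3; prior degrees of freedom 2.98) over 22215 probe sets with Benjamini-Hochberg adjustment, and passing means an adjusted p under 0.05. Intervals are 95%. On data simulated for this comparison (22215 probe sets), 36% of changes of 0.5 on the log2 scale were recovered, 72% of 1, 94% of 2 and 100% of 3. The simulation changed 50 probe sets at each size and drew independent noise without array-wide effects. In the data 1494 probe sets passed, so these shares need not hold for the fit to the data. The 6 arrays limit the precision.

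The members and the 5 lists were chosen with earlier results of these data known. Named by rule were all members, up to 4 passing genes per list and the 5 genes closest to a member whose brightest probe set passed. Across the lists, genes without a probe set of 1 symbol were not analysed here. The 16 alternatives changed the probe sets tested, normalization, filter, weights, variance model and arrays.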

Additional observations from a re-analysis of the deposited data

How the results depend on the processing

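The lower level of ESR1 held its direction and passed under all 16 alternatives, at log2 differences of -1.78 to -0.82 (adjusted p = 4.33e-05 to 0.0196), the smallest being the mean of its 9 probe sets. ESR2, PGR, FOXA1 and ELF3 passed under none, and the sign of ESR2, PGR and ELF3 was not stable. Array weights, which counted LCCTam replicate 1 at 5.70 and LCCTam replicate 3 at 0.199, gave GATA3 -0.33, XBP1 0.35 and SPDEF 0.31 as passing. They also called 12 of 27 member probe sets (4 higher and 8 lower) and 6828 of all 22215. In the lists they called 18 of the genes co-expressed with ESR1, 6 of the family members and 9 XBP1 targets. With 1 probe set per gene or the mean of a gene's probe sets 1 of 8 members passed, and 948 genes passed in the former. Without the _x_at and _s_at probe sets, a setting with no probe set of SPDEF left, 1 of 10 member probe sets passed. So did 705 of all probe sets, 8 estrogen-induced genes, 2 luminal factors and 1 XBP1 target, with fewer tested. An intensity trend gave 2 family members. Leaving out 1 array gave 4 to 6 member probe sets, 357 to 2398 of all probe sets, 9 to 15 estrogen-induced genes, 5 to 12 co-expressed genes, 0 to 7 luminal factors, 1 family member and 1 to 5 XBP1 targets. No paired analysis was possible because the lines share no passage. With 3 arrays a line, many small changes are missed, and without detection calls the levels of dim genes such as PGR and ESR2 cannot be told from background.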
